A study of Arabidopsis thaliana with 3 samples.

Results

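IMA1, IMA2, PYE and BHLH101 are genes of the Arabidopsis thaliana iron deficiency response, chosen by name: 4 of the 16505 genes measured here under a locus. IMA1 (AT1G47400) and IMA2 (AT1G47395) encode short peptides, and PYE (AT3G47640) and BHLH101 (AT5G04150) encode basic helix-loop-helix transcription factors. The gene tables used here list the IMA genes by locus only, so the pairing of those names with their loci is general knowledge. Each of the 4 genes has 1 probe set.

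Vascular tissue of cotyledons was profiled in 3 states with 1 Affymetrix Arabidopsis Gene 1.0 ST array each. All seedlings were grown for 8 days. The CEP1 array holds wild type on medium with 1 µM CEP1 peptide, the cepr1-1 array holds the cepr1-1 mutant on medium without added peptide, and the control array holds wild type on that same medium. Each RNA came from 200 cotyledons of seedlings kept in continuous light on Murashige-Skoog medium, with vascular strands freed by enzymes and sonication and picked by hand. No iron treatment is described in the labels, and no source used here gives the ecotypes or the kind of lesion in cepr1-1. There are no replicates, so each difference below is between 2 arrays, with no error, test or p-value.

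CEP1 is a root-made peptide that signals nitrogen shortage to the shoot through its receptor CEPR1, and the comparisons ask how the shoot vasculature answers the peptide and the loss of its receptor. The iron deficiency response has mobile peptides of its own: IMA peptides are made in the vasculature and raise iron uptake in roots. They bind BTS-type ubiquitin ligases, which otherwise mark upstream helix-loop-helix factors such as ILR3 and bHLH115 for breakdown. These factors, with their relatives bHLH34 and bHLH104 and their partner bHLH121, switch on PYE, BHLH101 with its close relatives, and the IMA genes themselves. PYE in turn represses a set of genes for iron movement, and BHLH101 is a partner of the root uptake regulator FIT. All of the 4 genes described here are known to be induced when iron is short.

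The peptide genes were lowest on the CEP1 array and highest on the cepr1-1 array. IMA1 had a log2 probe set value of 3.57 with CEP1 and 4.70 in cepr1-1, against 4.46 in the control. IMA2 had a log2 value of 3.51 with CEP1 and 4.93 in cepr1-1, against 4.58 in the control. Both genes therefore had the same order of the 3 arrays, with cepr1-1 first, the control next and CEP1 last. On the linear scale IMA1 was 11.9 with CEP1 and 25.9 in cepr1-1, against 22.0 in the control, and IMA2 was 11.4 with CEP1 and 30.4 in cepr1-1, against 23.9 in the control.

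The transcription factor genes did not show that order. PYE had the same log2 value, 5.62, on all 3 arrays. BHLH101 was 1.69 with CEP1 and 2.02 in cepr1-1, against 2.02 in the control. The medians over measured genes were 3.07 with CEP1 and 3.11 in cepr1-1, against 3.07 in the control, so BHLH101 lay below the median on all 3 arrays, where signal above background is not shown. IMA1, IMA2 and PYE lay above it on all 3, and on the CEP1 array IMA1 was 0.50 and IMA2 was 0.44 above it on the log2 scale. Identical values were common in this table: 54.6% of measured genes were equal on all 3 arrays, and among the 8098 genes at or above the median on every array the share was 49.6%. No source used here says how probes were summarised, and the equal values of PYE do not show that its expression was unchanged.

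**Figure D1:**
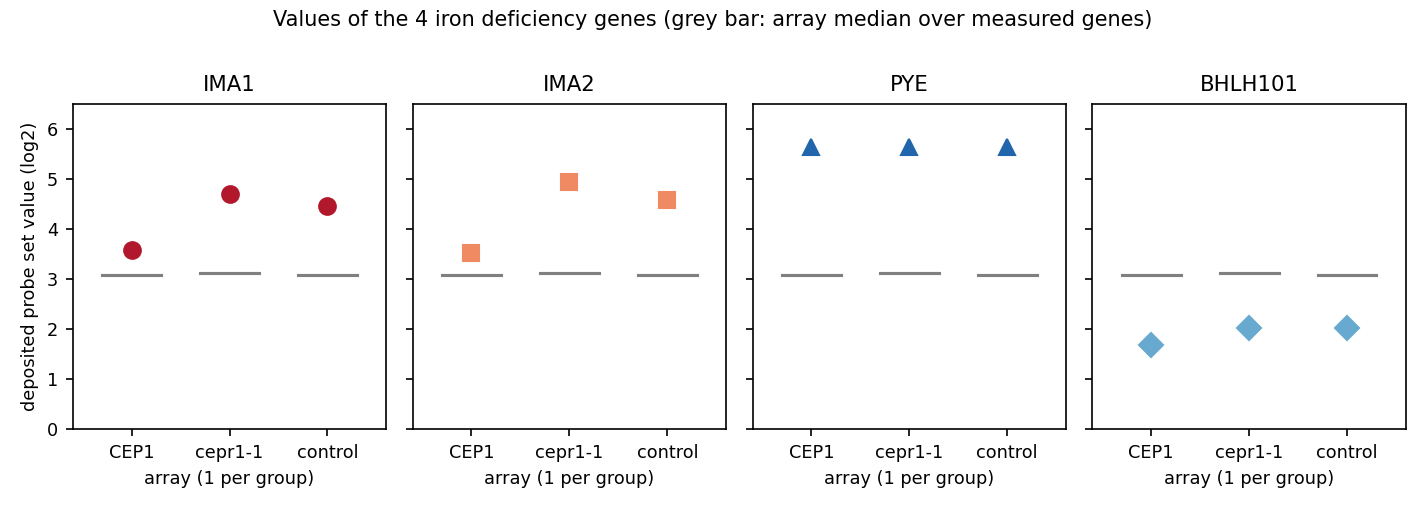
Deposited log2 probe set values of IMA1, IMA2, PYE and BHLH101 (vertical axis) on the CEP1, cepr1-1 and control arrays (horizontal axis), 1 point per array, with the median over measured genes of each array as a grey bar. IMA1 and IMA2 are lowest on the CEP1 array, at 3.57 and 3.51, PYE stays at 5.62, and BHLH101 lies under the grey bars.

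With CEP1, both peptide genes were lower than in the control by more than 1.5-fold. The difference of IMA1, CEP1 minus control, was -0.89 on the log2 scale, which is 1.85-fold lower, and that of IMA2 was -1.07, which is 2.1-fold lower. PYE differed by 0 and BHLH101 by -0.33, which is 1.26-fold lower between values below the array medians. The mean IMA difference was -0.98, also when set against PYE, whose difference is 0. Against the mean of both transcription factor genes (-0.17) it was -0.81, a value that includes BHLH101 below the medians. The median difference over all measured genes was 0. With a pseudocount of 16 added on the linear scale, which damps dim genes, the differences were -0.45 for IMA1 and -0.54 for IMA2, short of 1.5-fold.

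Differences as low as those of the IMA genes were uncommon with CEP1, but these genes were chosen with that result already known, so their place in the distribution is a description. Among the 8596 genes whose brighter array of the pair was at or above its median, 92 were 1.5-fold or more lower with CEP1, which is 1.07%, and 135 were 1.5-fold or more higher, which is 1.57%. IMA2 stood 10th from the lowest of these genes and IMA1 24th. Dim probe sets can differ more between arrays than bright ones, so genes of like brightness were also counted, a choice made after the values were seen. Of the 2780 genes within 0.5 of the IMA values on the control array (3.96 to 5.08 on the log2 scale), 31 were 1.5-fold or more lower with CEP1, a share of 1.12%. Of those 2780 genes, 3 were as low as IMA2, itself included, and 9 were as low as IMA1.

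In cepr1-1 the peptide genes were higher than in the control by less than 1.5-fold. The difference of IMA1, cepr1-1 minus control, was 0.24 on the log2 scale (1.18-fold higher) and that of IMA2 was 0.35 (1.27-fold higher). PYE and BHLH101 each had equal values in the mutant and the control. The mean IMA difference was 0.29, and since both transcription factor genes differed by 0, setting it against them gives the same value. Equal values were common on this pair, at 62.3% of measured genes, and BHLH101 lay below the medians, so those zeros say little.

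Differences of that size were not rare. Of 8643 genes at or above the median on the brighter array, 586 were at least as high in cepr1-1 as IMA1 and 363 at least as high as IMA2, shares of 6.78% and 4.2%. Those past 1.5-fold numbered 111 higher (1.28%) and 185 lower (2.14%), and neither IMA gene was among them. In the group of like brightness 16 of 2780 genes were 1.5-fold or more higher in the mutant, or 0.576%. In that group 148 genes were at least as high as IMA1 and 84 at least as high as IMA2, shares of 5.32% and 3.02%. The IMA values of the mutant thus lay above the control by an amount that many other genes also reached.

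**Figure D2:**
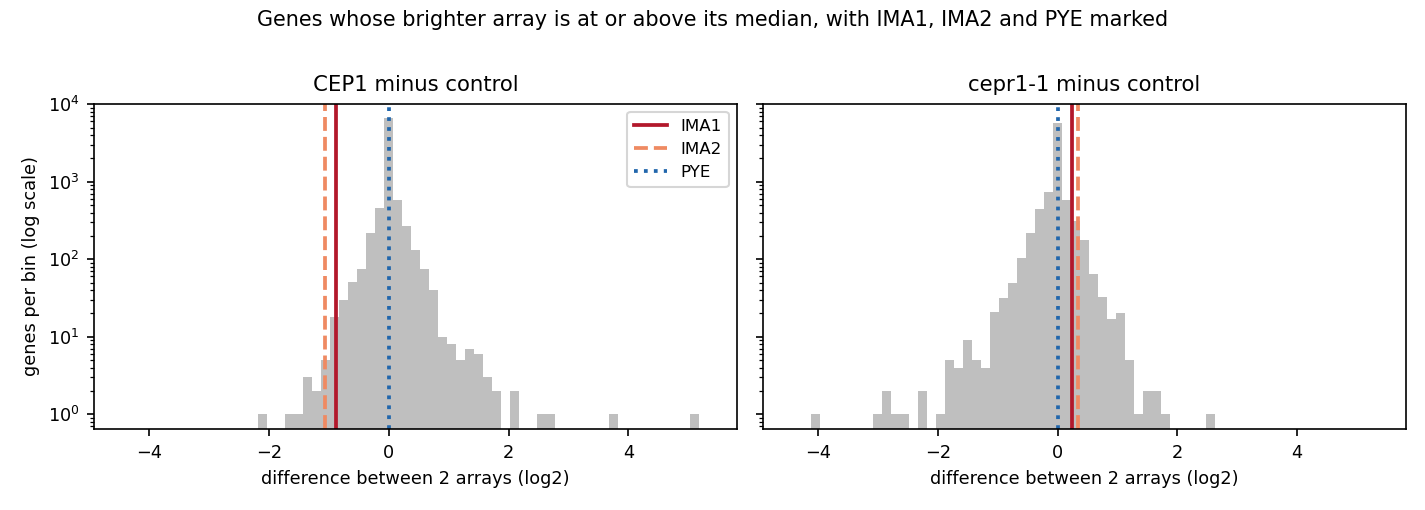
Number of genes (vertical log axis) by log2 difference between arrays (horizontal axis) for CEP1 minus control on the left and cepr1-1 minus control on the right, among 8596 and 8643 genes whose brighter array is at or above its median. IMA1 and IMA2 sit in the left tail with CEP1, at -0.89 and -1.07, and near the bulk in cepr1-1, at 0.24 and 0.35, whereas PYE is at 0 in both.

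The arrays at the ends of the IMA order differed most. CEP1 minus cepr1-1 was -1.13 on the log2 scale for IMA1, which is 2.18-fold lower with CEP1, and -1.42 for IMA2, which is 2.67-fold lower. PYE differed by 0 and BHLH101 by -0.33. The mean IMA difference minus that of PYE was -1.27, and minus the mean of both transcription factor genes, with the dim BHLH101 included, it was -1.10. Among 8627 genes, 168 were 1.5-fold or more lower with CEP1 than in cepr1-1 (1.95%) and 323 were higher (3.74%), and IMA2 stood 13th from the lowest and IMA1 29th. This difference is made of the same 3 values as the comparisons with the control, both of which use the single control array, so it adds no separate evidence.

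**Figure D3:**
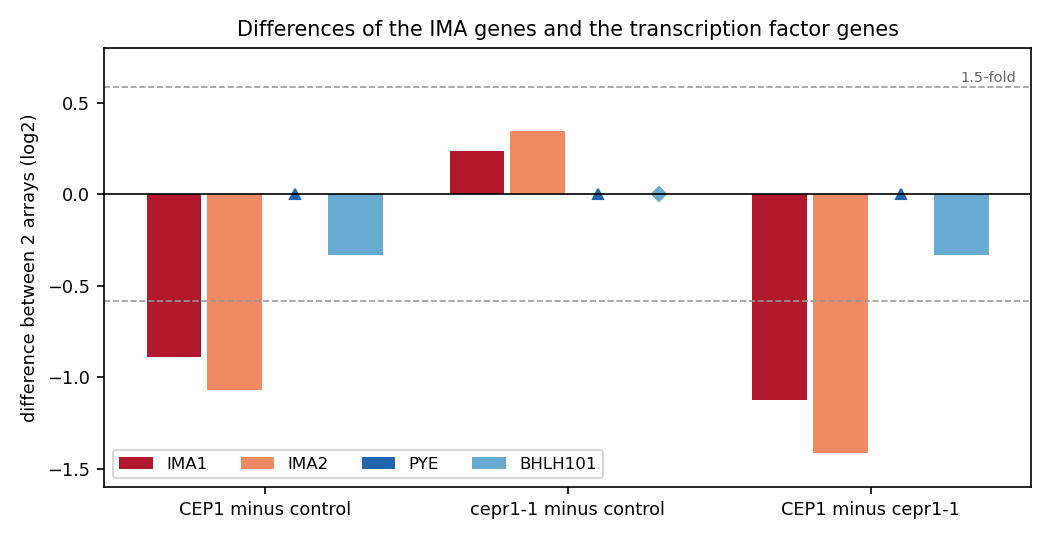
Log2 differences between arrays (vertical axis) of IMA1, IMA2, PYE and BHLH101 for CEP1 minus control, cepr1-1 minus control and CEP1 minus cepr1-1, with dashed lines at 1.5-fold and a marker where the difference is 0. The IMA bars pass the lower line in the first and last comparison and stay inside the lines in cepr1-1 minus control, and no bar of PYE or BHLH101 passes a line.

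The study's own pathway genes ran the other way. CEPD1 and CEPD2 encode glutaredoxins that carry the nitrogen demand signal from shoot to root. CEPD1 was 9.0 with CEP1 and 3.39 in cepr1-1, against 7.46 in the control, and CEPD2 was 5.79 with CEP1 and 1.78 in cepr1-1, against 4.06 in the control (log2 values, known here by the loci AT1G06830 and AT2G47880). These genes were thus highest where the IMA genes were lowest. The CEPD2 value in cepr1-1 lay below that array's median of 3.11, where signal above background is not shown.

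The upstream helix-loop-helix genes gave values for the regulators that act on the IMA and PYE genes. Of 22 regulators listed, 7 have a named probe set here: PYE, BHLH101 and another 5, all above the median on all 3 arrays. None of the 5 differed by 1.5-fold or more between CEP1 and the control, where their differences ran from -0.13 to 0.05 on the log2 scale, with a median of 0. Of 8596 genes at or above the median on the brighter array, 1.57% were higher and 1.07% lower by that fold. Of all measured genes, 71.4% were equal on the pair of arrays. A count of 0 among 5 genes therefore sets them apart from no other genes. bHLH121, the partner of the other 4, was 6.78 with CEP1 and 6.80 in cepr1-1, against 6.80 in the control. ILR3, which is also known for a role in auxin conjugate response, was 7.71 with CEP1 and 7.67 in cepr1-1, against 7.67 in the control. bHLH104 was 4.58 on all 3 arrays.

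The remaining pair was lower in the mutant. bHLH34 was 5.31 with CEP1 and 4.74 in cepr1-1, against 5.44 in the control, so it was 1.63-fold lower in cepr1-1 than in the control (difference -0.70). It was the 1 regulator of the 7 past 1.5-fold in any of the 3 comparisons. Of 8643 genes at or above the median on the brighter array, 2.14% were lower and 1.28% higher by that fold in cepr1-1 minus control. Of 8627 such genes, 1.95% were lower and 3.74% higher with CEP1 than in cepr1-1, so the count of 1 is given as a description. bHLH115 was 6.18 with CEP1 and 5.85 in cepr1-1, against 6.18 in the control, 1.26-fold lower in the mutant. The array with the lowest bHLH34 and bHLH115 values was therefore the one with the highest IMA values.

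**Figure D4:**
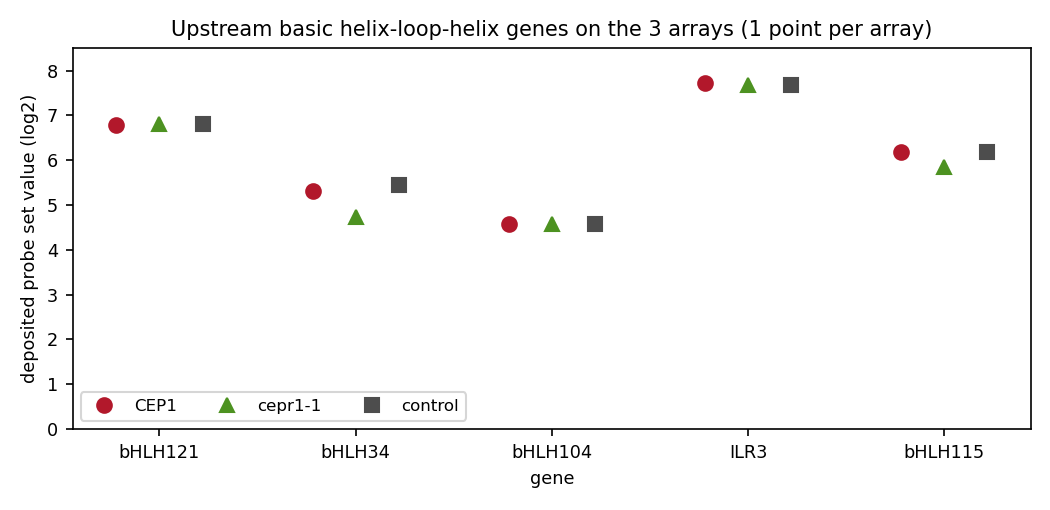
Deposited log2 probe set values (vertical axis) of bHLH121, bHLH34, bHLH104, ILR3 and bHLH115 on the CEP1, cepr1-1 and control arrays, 1 point per array. The 3 arrays nearly coincide for bHLH121, bHLH104 and ILR3, and the cepr1-1 point is the lowest for bHLH34, at 4.74, and for bHLH115, at 5.85.

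Other parts of the iron pathway were thinly covered. Of 10 listed genes for iron uptake and coumarin synthesis, 1 has a named probe set here, the beta-glucosidase gene BGLU42, which was 5.47 on all 3 arrays. Of 34 listed genes for iron movement and storage none has one, so iron transporters, nicotianamine synthases and ferritins were not analysed here. The annotation gives no gene for 20927 of the 38408 probe sets, so a missing name does not show that the array lacks probes for a gene. The third peptide gene of the list, IMA3, has no named probe set of its own.

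IMA1 and IMA2 are next to each other in the gene table, with no locus between them. The measured loci on either side, AT1G47390 at 1.39 and AT1G47410 at 2.40, had equal values on all 3 arrays and lay below every array median. The next measured locus beyond AT1G47390, AT1G47389, was 1.25 on all 3 arrays, again below every median. The next measured locus beyond AT1G47410, AT1G47450, was 1.83 with CEP1 and 2.50 in cepr1-1, against 2.05 in the control. That is the order of the IMA genes, but also below every median. At such levels these probe sets do not show whether nearby genes differed. Whether the probe sets of the IMA genes share signal was not tested.

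The genes with the most similar behaviour were found by Euclidean distance over the pair of differences from the control, among 8097 other genes at or above the median on all 3 arrays. Nearest to IMA1 were AT1G49032 (differences -0.84 with CEP1 and 0.25 in cepr1-1), AT3G15450 (-0.76 and 0.28), AT2G25964 (-0.73 and 0.22), AT2G32870 (-0.77 and 0.13) and AT5G14120 (-0.91 and 0.41). Nearest to IMA2 were AT1G30060 (-1.11 and 0.31) and AT5G14120, and the third nearest was IMA1 itself, at a distance of 0.21. AT1G49032 and AT3G15450 followed. Seen from IMA1, IMA2 was the 8th nearest gene. With 3 arrays this likeness rests on 2 numbers per gene, and no such genes are named for PYE, whose nearest genes are tied at a distance of 0.

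Markers of leaf cell types were set beside the IMA values. The phloem sugar exporter gene SWEET11 was 11.5 on each array, and OPS, a phloem differentiation gene, was 2.91 on all 3 and below the medians. These are 2 of 10 listed phloem markers, and none of 11 listed xylem and procambium markers has a named probe set here. Of 17 mesophyll markers 3 were measured, and none was near the bottom of the scale. Rubisco activase gene RCA was 9.37 with CEP1 and 9.70 in cepr1-1, against 9.49 in the control, and the Calvin cycle gene SBPASE was 7.45 with CEP1 and 8.25 in cepr1-1, against 7.55 in the control. PRK, another Calvin cycle gene, was 5.74 with CEP1 and 5.71 in cepr1-1, against 5.74 in the control. RCA and SBPASE thus had the order of arrays seen for the IMA genes and PRK did not. CEP1 minus control was -0.12 for RCA and -0.10 for SBPASE, against -0.89 for IMA1 and -1.07 for IMA2. The differences of cepr1-1 minus control were 0.21 for RCA and 0.69 for SBPASE, against 0.24 for IMA1 and 0.35 for IMA2. The summed linear level of the 3 mesophyll markers, most of it from RCA, was 892 with CEP1 and 1186 in cepr1-1, against 960 in the control. Of 14 epidermis and guard cell markers 3 were measured, with a summed linear level of 34.6 with CEP1 and 47.6 in cepr1-1, against 46.8 in the control. FAMA, a guard cell regulator, gave most of it at log2 values of 4.86 with CEP1 and 5.37 in cepr1-1, against 5.37 in the control, while MUTE and SPCH lay below the medians. The part of these cells in the IMA values was not tested, and in such bulk tissue fewer cells of a type and less RNA per cell cannot be told apart.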

How the data were processed

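The authors deposited 1 log2 value per probe set and array, for 38408 probe sets on 3 arrays. The log2 scale was read from the range of the values. Per the submitters' processing notes, the software was Affymetrix Expression Console 1.3. No source used here names the background correction, normalization, probe summary or genome build.

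The platform annotation lists 1 gene for 16722 probe sets, several genes for 759 (not used for named genes) and none for 20927. Names came from the RefSeq gene table of TAIR10.1: by gene ID 16574 probe sets matched, by locus another 96, and 52 matched neither way. Each locus was represented by its probe set of highest mean, leaving 16505 measured genes. Differences are log2 values of the first array minus the second, with no further normalization, and folds are 2 to the power of their size. A gene enters a count where, on the brighter array of the pair, its value reaches the median over measured genes. With 1 array per group no test was run, and the number of arrays limits the precision.

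Named genes are the 4 members, measured genes of the iron lists, the 5 genes nearest each IMA gene, flanking loci and CEPD1 and CEPD2. The members and lists were chosen with earlier results of these data known. The symbols FDH and GC1 were not matched, as they fit other or several genes in the gene table. They still count among the listed epidermis and guard cell markers. Python 3.11.15, pandas 2.3.3 and statsmodels 0.14.6 were used. Alternatives were median centring, quantile normalization, a pseudocount of 16, lowess trend removal, the mean of probe sets, other floors and a fold of 2.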

Additional observations from a re-analysis of the deposited data

Results flagged for a closer look

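One probe set outside the comparisons differed between the arrays in the order seen for the IMA genes. The platform annotation lists it for both AT2G30766 and AT2G30760, so its signal belongs to no single gene here. AT2G30766 is, by general knowledge, the locus of IMA3, and no value is given to IMA3. The probe set was 3.18 with CEP1 and 6.12 in cepr1-1, against 5.20 in the control (log2 values), so the mutant lay above the control array by 0.92 and the CEP1 array differed from it by -2.02, which is 4.06-fold lower. It was looked up by its locus, so the counts that follow are a description. Among the 759 probe sets listed for several genes, 445 passed the same floor with CEP1. Of these, 3 were 1.5-fold or more lower, and 1, this one, was 2-fold or more lower. Of the 8596 measured genes past that floor, 92 were 1.5-fold or more lower and 12 were 2-fold or more lower. In cepr1-1, 2 of 446 were 1.5-fold or more higher (0.448%), this one included, against 1.28% of measured genes past the floor. Another probe set listed for the same loci was 1.78 on all 3 arrays. Which locus gave the signal was not tested.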

How the results depend on the processing

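No paired analysis was possible because each group has 1 array. For the same reason no array could be left out. Of 90 alternative values of the members and their classes, 78 moved by less than 0.1 on the log2 scale and none of the differences past 1.5-fold changed sign. Some of these 78 could not move, so their number does not measure stability. Each member has 1 probe set, so the mean of probe sets changes none of its values. The CEP1 and control arrays have the same median, so median centring changes no difference between them. Lowess trend removal also left CEP1 minus control at -0.89 for IMA1 and -1.07 for IMA2. The pseudocount of 16, which damps dim genes, ended the 1.5-fold call of both IMA genes with CEP1. With it, CEP1 minus control was -0.45 for IMA1, -0.54 for IMA2 and -0.061 for BHLH101, and the IMA mean minus the transcription factor mean was -0.46. In cepr1-1 minus control, IMA2 was then 0.22 and the class difference 0.18. CEP1 minus cepr1-1 was -0.59 for IMA1, -0.76 for IMA2 and -0.061 for BHLH101, with a class difference of -0.64. Quantile normalization over all probe sets gave BHLH101 -0.10 in cepr1-1 minus control and -0.20 in CEP1 minus cepr1-1.

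The counts of genes past 1.5-fold kept within 1.5 times their value in 39 of 54 alternatives. With the pseudocount, 51 were higher and 28 lower with CEP1 than in the control, 22 higher and 81 lower in cepr1-1 than in the control, and 163 higher and 49 lower with CEP1 than in cepr1-1. At a fold of 2 these counts were 36 and 12, 30 and 49, and 123 and 47. Without a floor, 260 were higher and 229 lower in cepr1-1 than in the control, where the floor gave 111 and 185, and 362 were higher and 367 lower with CEP1 than in cepr1-1, where the floor gave 323 and 168, so the balance of directions turned in both. With both arrays at or above their medians, 68 were higher in cepr1-1 than in the control. Without measured background or replicates, noise at the brightness of the IMA probe sets is unknown.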
